A study of Mus musculus with 7 samples.

Results

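Class 5 and 6 semaphorins and plexins of the A and B families were measured in RNA of cardiac neural crest cells. The cells came from embryos with and without deletion of Chd7, the gene of a chromatin remodelling enzyme. The genes described are 5 semaphorins (Sema5a, Sema5b, Sema6a, Sema6c and Sema6d) and 5 plexins (Plxna1, Plxna3, Plxna4, Plxnb1 and Plxnb2), chosen by symbol. All 10 were found among the 19144 gene symbols of the deposited table, and all 10 had a mean of at least 1 FPKM, the level required for testing. FPKM is the number of reads scaled for gene length and library total, so levels can be set side by side between genes. The members were chosen by name, and earlier results of these data were known at that time.

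Semaphorins are guidance cues that steer growing axons and migrating cells, most often by repelling them, and plexins are their transmembrane receptors. Semaphorins of classes 5 and 6 are themselves anchored in the membrane, so they act between neighbouring cells, and class 5 proteins also carry thrombospondin repeats. Class 6 semaphorins bind plexins of the A family directly, without the neuropilins that class 3 semaphorins need. Plexins of the B family mainly receive class 4 semaphorins. In the mouse embryo plexin-A2 marks migrating cardiac neural crest cells, and semaphorins 6A and 6B have been described as repellents that help to keep these cells on their path to the outflow tract.

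Mouse embryos at E10.5 were the source of the cells, which were sorted for green fluorescent protein after dissection of pharyngeal arches 3 to 6. In all embryos the transgene Wnt1-Cre2, a recombinase made in the dorsal neural tube and the neural crest arising from it, switched on the reporter mTmG. Of the 7 libraries, 4 came from embryos labelled Chd7 +/+ (wild type 1 to 4) and 3 from embryos labelled Chd7 loxp/loxp, in which the same recombinase deletes Chd7 (Chd7 deletion 1, 3 and 4). The stated cross used mothers with floxed Chd7 on both chromosomes, from which each embryo would inherit a floxed copy, so the genotype of the controls is given as labelled. The number of embryos behind a library is not given in the sources used here, so p-values measure the spread between libraries, which may be partly technical.

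Chd7 itself had a mean of 14.2 FPKM in wild type (SD 0.337, n = 4) and of 7.71 FPKM after deletion (SD 0.208, n = 3). The depth of the libraries, derived from genes with few reads, lay between 0.865 and 1.29 times that of wild type 1. All 7 neural crest markers reached 1 FPKM, and their summed level was 116 to 152 FPKM in the wild type and 124 to 154 FPKM after deletion. Neuronal and glial markers were also present. The neural crest markers differed in opposite directions within that sum. Sox10 (1.75-fold, limma, adjusted p = 0.0193) and Foxd3 (1.54-fold, adjusted p = 0.0142) rose after deletion. Twist1 stood at 0.576 and Prrx1 at 0.614 of the wild-type mean with no overlap between groups (adjusted p = 0.113 and 0.157 in limma), and both fell under the replicate block (adjusted p = 0.00695 and 0.00628). Tfap2a, Tfap2b and Ets1 passed in neither fit. Markers of endothelium summed to 1.9 to 3.64 FPKM over the 7 libraries, and those of epithelium to 5.93 to 11.7 FPKM. Blood markers summed to 17.9 to 46.9 FPKM and muscle markers to 11.3 to 23.7 FPKM. On the first principal component (60.5% of the variance) wild type 1 and 2 and Chd7 deletion 1 were separated from the libraries numbered 3 and 4. Each result below is therefore given in the fit on genotype alone and, where the call changes, with the replicate number as a block. Wild type 2 has no partner of its number, so the block estimates rest on numbers 1, 3 and 4. With limma, 98 of 11039 genes were called at an adjusted p of 0.05 in the genotype fit, and 366 under the block. The count of 98 fell to 4 without wild type 3 or Chd7 deletion 4, to 12 without Chd7 deletion 3, and to 35, 40 and 53 without wild type 2, 1 and 4. Of the genes called in the genotype fit 45 were higher and 53 lower, and with libraries scaled to the same median 80 were higher and 74 lower.

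In the wild type the B plexins and plexin-A1 were the most abundant members. Plxnb2, which encodes a receptor of semaphorin 4C, stood at 29.9 ± 1.04 FPKM (SD, n = 4), Plxna1 at 24.7 ± 2.91 FPKM and Plxnb1, which encodes the receptor of semaphorin 4D, at 19.9 ± 1.42 FPKM. The wild-type libraries of these 3 genes did not overlap with one another, nor did those of Plxnb1 with the next gene, Sema6a. The other 7 members lay between 3.87 and 9.93 FPKM, in the order Sema6a, Plxna3, Sema6c, Sema6d, Sema5a, Plxna4 and Sema5b. Each of these neighbours overlapped in range with the next. Sema5a exceeded Plxna4 in 2 of the 4 libraries, so their order is not resolved. The lowest member, Sema5b, was above 60.1% of all symbols in the table, and Plxnb2 above 94.2%.

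**Figure D1:**
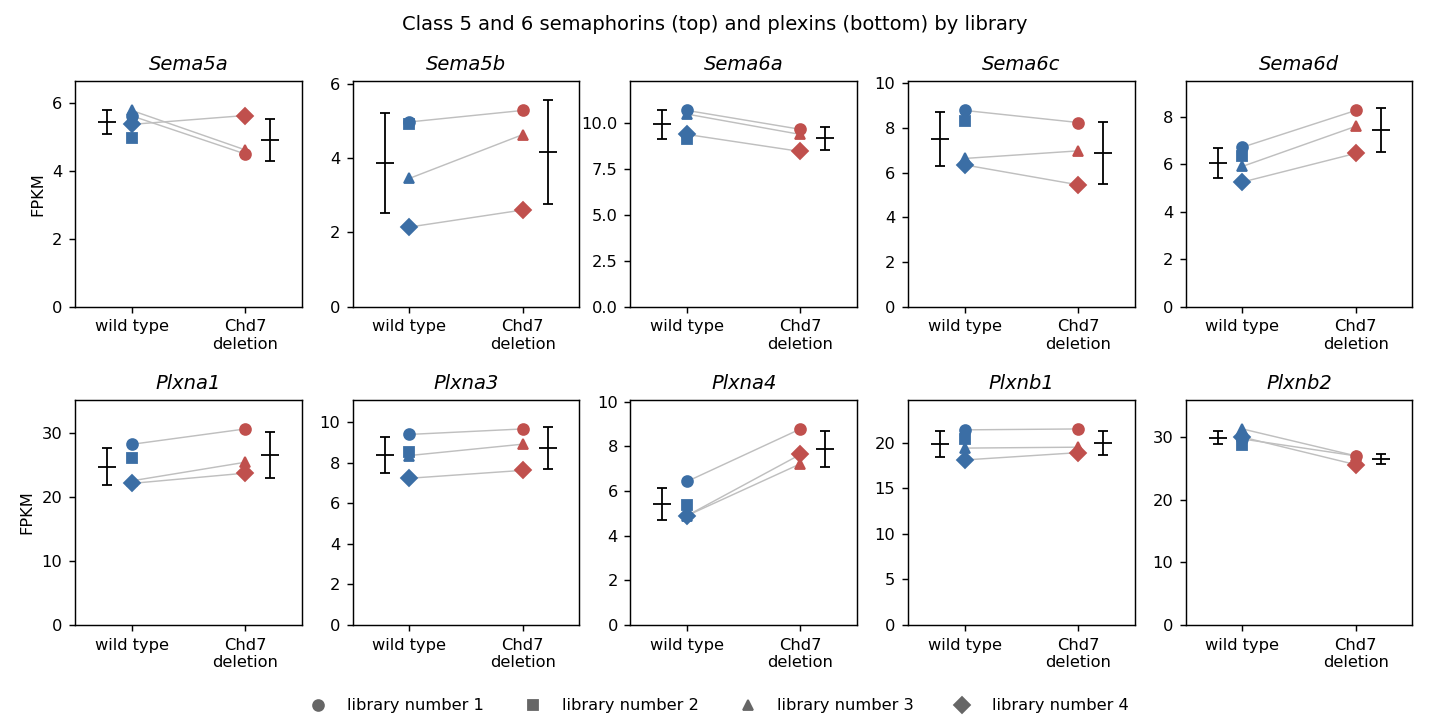
FPKM (vertical axis, from 0) of the 5 semaphorins (top row) and 5 plexins (bottom row) in each library, with wild type in blue and Chd7 deletion in red. Marker shapes give the library number, grey lines join libraries with the same number, and black bars give the mean and SD of each group. For Plxna4 the deletion libraries (7.22 to 8.78 FPKM) lie above all wild-type libraries (4.9 to 6.43 FPKM), and for Plxnb2 (25.6 to 27.0 FPKM) below all of them (28.7 to 31.3 FPKM).

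After deletion of Chd7 the plexin gene Plxna4 showed the largest difference among the 10 members, 1.46-fold higher, and the semaphorin gene Sema6d followed at 1.23-fold. Neither passed the adjusted threshold in the genotype fit, but both rose under the replicate block. In the genotype fit 0 of 10 members were called (limma, adjusted p of 0.05), where 0.888% of all genes tested were (0.408% higher and 0.48% lower). At an unadjusted p below 0.05 there were 3 members, where 7.38% of all genes were. These were Plxna4 and Sema6d on the higher side (2.56% of all genes) and Plxnb2 on the lower side (4.82% of all genes). Under the replicate block 2 of 10 members were called, both higher, where 3.32% of all genes were called, 1.04% higher and 2.27% lower. The groups did not overlap for 2 of 10 members, Plxna4 and Plxnb2, and for 9.17% of all genes tested. The median log2 fold change of the members was 0.03, and that of all genes tested -0.04. Under the block these medians were 0.04 and -0.07. In bulk samples fewer cells of a type and less RNA per cell cannot be told apart, nor more cells and more RNA. All log2 fold changes are deletion minus wild type on the log2(FPKM + 1) scale.

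**Figure D2:**
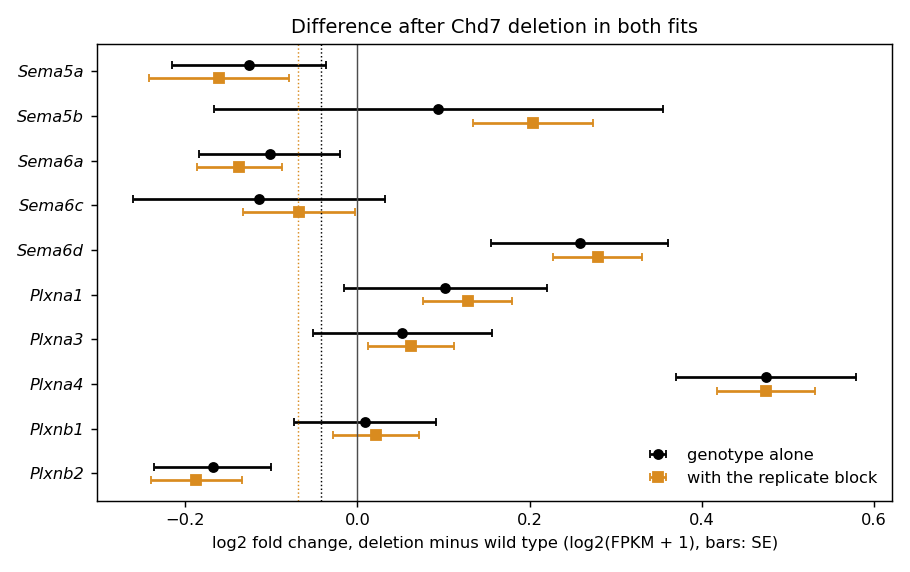
Log2 fold change after Chd7 deletion (horizontal axis, deletion minus wild type on the log2(FPKM + 1) scale) for each of the 10 members, with bars of 1 SE. Black circles are the fit on genotype alone, orange squares the fit with the replicate block, and dotted lines the median of all genes tested in each fit (-0.04 and -0.07). Plxna4 lies farthest from 0 in both fits (0.47), and the block narrows the SE of Sema5b from 0.261 to 0.0698.

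Plxna4 encodes a receptor that binds semaphorin 6A directly and, together with neuropilin-1, responds to semaphorin 3A. The wild-type libraries 1 to 4 had 6.43, 5.38, 4.9 and 4.9 FPKM, and the deletion libraries 1, 3 and 4 had 8.78, 7.22 and 7.64 FPKM. Every deletion library was above every wild-type library, and within each genotype library 1 was the highest. Behind these values stand 1761 to 2731 reads in wild type and 2604 to 3885 reads after deletion. The means were 5.4 ± 0.72 FPKM in wild type (SD, n = 4) and 7.88 ± 0.808 FPKM after deletion (SD, n = 3). Limma estimated a log2 fold change of 0.47 (SE 0.104), with a 95% interval of 0.24 to 0.71 and an adjusted p of 0.116. With the replicate block the estimate was the same, its SE was 0.0568 and the adjusted p in limma was 0.0152. Across the 24 alternatives the adjusted p lay between 1.62e-07 and 0.361. Its lowest value came from the replicate block without number 1, an alternative chosen after the data were seen. The exact permutation test, two-sided, gave p = 0.0571, where 0.0286 is the smallest value possible.

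The Plxna4 difference was present within both library sets. Among libraries 1 and 2 the wild-type mean was 5.9 FPKM against 8.78 FPKM in Chd7 deletion 1, and among libraries 3 and 4 the wild-type mean was 4.9 FPKM against 7.43 FPKM. The ratio of same-numbered libraries was 1.37 for number 1, 1.47 for number 3 and 1.56 for number 4. The block call was lost without number 4, where Plxna4 had a log2 fold change of 0.44 (limma, adjusted p = 0.285). Plxna4 lies on chromosome 6 of GRCm38 from 32144268 to 32588192. An annotated antisense gene, Plxna4os3, shares 110 exon bases with it on the opposite strand, and whether counting used strand is not given in the sources used here. The table lists another antisense gene, Plxna4os1, at 0.234 to 0.351 FPKM in the wild type and 0.232 to 0.34 FPKM after deletion.

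Schwann cell precursor and glial markers were higher in the same libraries. Of the 5 markers on that list, 4 reached 1 FPKM in some library. The summed level of the 5 was 46.0 to 54.0 FPKM in the wild type and 63.2 to 78.2 FPKM after deletion. None of the 5 was at 0, and Erbb3, a neuregulin receptor of the glial lineage, rose (limma, adjusted p = 0.0111). The highest Plxna4 value was in Chd7 deletion 1 and the highest glial sum in Chd7 deletion 3. The part of glial cells in the Plxna4 level was not tested.

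Among 11038 tested genes, those whose log2 values were most like Plxna4 over the 7 libraries were Cdon (Pearson r = 0.989), Fam49a (0.980) and Xylt1 (0.976). The libraries share their genotype groups and sets, so such values are a description only. Cdon, the gene of a co-receptor for hedgehog ligands, was 6.5 to 7.4 FPKM in the wild type and 7.68 to 8.33 FPKM after deletion. Fam49a was 1.33 to 1.58 FPKM and 1.97 to 2.17 FPKM, and Xylt1, whose product starts glycosaminoglycan chains on proteoglycans, was 1.72 to 2.19 FPKM and 2.27 to 2.81 FPKM.

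The other A plexins among the members differed less. Plxna1, a receptor for semaphorin 6D and a partner of the neuropilins, was 22.1 to 28.2 FPKM in the wild type and 23.7 to 30.6 FPKM after deletion, on 5701 to 9720 reads per library. The limma estimate of its log2 fold change was 0.10 (SE 0.118), with a 95% interval of -0.17 to 0.37 and an adjusted p of 0.952. Plxna3, which with neuropilin-2 receives semaphorin 3F, was 7.23 to 9.39 FPKM and 7.62 to 9.66 FPKM, with a log2 fold change of 0.05 and an interval of -0.19 to 0.29. For both genes each deletion library was above the wild-type library of the same number. That was so for 6 of 10 members in all, and for 11.5% of all genes tested. Among the 6 was Plxnb1, with ratios of only 1.003 to 1.043. Of all genes, 36.7% were lower in each pair. Their median log2 fold change under the block was -0.069, and -0.002 with median scaling added, so such counts depend on scaling. An annotated antisense gene, Gm26811, shares 970 exon bases with Plxna1 on the opposite strand.

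As a share of the summed FPKM of the 4 A plexins, Plxna4 made up 10.1% to 11.3% in the wild-type libraries and 13.5% to 14.9% in the deletion libraries. Plxna1 held 46.1% to 50.7% of that sum in the wild type and 46.3% to 49.0% after deletion. Plxna2, which is no member and is the plexin best known in cardiac neural crest, held 22.2% to 26.7% and 21.5% to 24.0%. The Plxna2 level was 12.4 FPKM in wild type (SD 0.698, n = 4) and 12.6 FPKM after deletion (SD 0.714, n = 3), and a 95% interval for its log2 fold change ran from -0.15 to 0.19. The summed A plexins were 46.6 to 56.7 FPKM in the wild type and 51.3 to 62.5 FPKM after deletion, and these ranges overlapped.

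**Figure D3:**
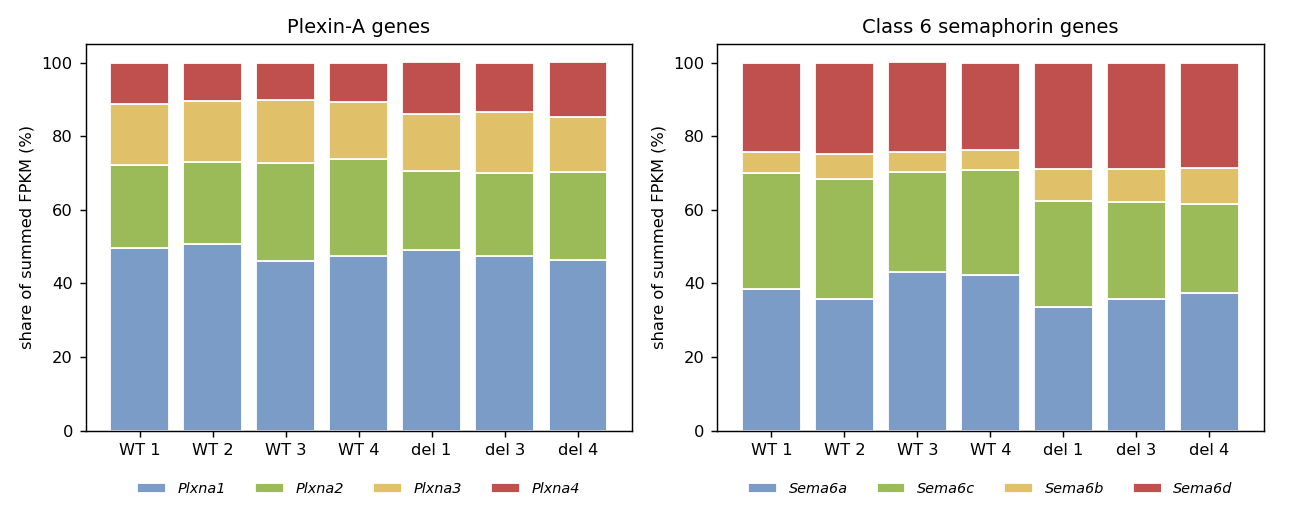
Share of the summed FPKM (vertical axis, percent) taken by each of the 4 A plexins (left) and each of the 4 class 6 semaphorins (right), with 1 stacked bar per library (WT, wild type; del, Chd7 deletion). Plxna4 takes 10.1% to 11.3% of the left sum in the wild type and 13.5% to 14.9% after deletion, and Sema6d 23.7% to 24.9% and 28.6% to 28.9% of the right sum.

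Sema6d encodes a ligand of plexin-A1 that acts in heart morphogenesis of the chick embryo. The wild-type libraries 1 to 4 had 6.72, 6.33, 5.91 and 5.25 FPKM, and the deletion libraries 1, 3 and 4 had 8.27, 7.6 and 6.46 FPKM. The groups overlapped, because Chd7 deletion 4 lay below wild type 1. Each deletion library was above the wild-type library of its number, by a ratio of 1.23 for number 1, 1.29 for number 3 and 1.23 for number 4. Read numbers were 1081 to 1842 in wild type and 1261 to 2095 after deletion. Means of 6.05 ± 0.627 FPKM in wild type (SD, n = 4) and 7.44 ± 0.912 FPKM after deletion (SD, n = 3) gave a log2 fold change of 0.26 (SE 0.102, adjusted p = 0.599 in limma). Under the replicate block it was 0.28 (SE 0.0518, adjusted p = 0.0479 in limma). The 24 alternatives gave an adjusted p between 0.0048 (block with median scaling, chosen after the data were seen) and 0.998. That call is close to the threshold, and it was lost without number 3 (log2 fold change 0.26, adjusted p = 0.0549) or number 4 (0.29, adjusted p = 0.414), with estimates of similar size. Without number 4 the block fit called 0 genes in limma, Chd7 included (adjusted p = 0.196), against 1052 genes at an unadjusted p below 0.05. The exact permutation test, which takes no account of the numbers, gave p = 0.0857.

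Within the class 6 semaphorins, Sema6d held 23.7% to 24.9% of the summed FPKM in the wild type and 28.6% to 28.9% after deletion, the narrowest spread of any class 6 gene. Sema6a, the gene of a repellent ligand of plexins A2 and A4, held 35.9% to 43.1% and 33.7% to 37.4%. Its level was 9.15 to 10.7 FPKM in the wild type and 8.46 to 9.67 FPKM after deletion. The ratio of same-numbered libraries for Sema6a was 0.905, 0.896 and 0.901, in the order 1, 3 and 4. Its log2 fold change was -0.10 with a 95% interval of -0.29 to 0.09 (limma, adjusted p = 0.933, or 0.183 under the block). Sema6a and Plxnb2 were the 2 members that were lower in each number pair, where 36.7% of all genes were.

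Sema6b is the remaining gene of class 6 and no member. It had 1.58, 1.71, 1.31 and 1.21 FPKM in wild type 1 to 4 and 2.5, 2.32 and 2.21 FPKM in Chd7 deletion 1, 3 and 4. The groups did not overlap, with 137 to 274 reads in wild type and 238 to 349 after deletion. The fold was 1.61, and the log2 fold change 0.45 (SE 0.0926, adjusted p = 0.0907 in limma). The glial marker sums were higher in the same deletion libraries, and their part in the Sema6b level was not tested. Sema6b rose under the replicate block (log2 fold change 0.50, adjusted p = 0.018 in limma, and between 2.31e-06 and 0.318 across the 24 alternatives). The lowest of these came from the block without number 1, chosen after the data were seen.

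The sequences before the start sites of Sema6d, Sema6b and of the plexin gene Plxnd1, described below, are shown because these genes rose under the block and have an entry in the promoter table (RefSeq, GRCm38.p6). Entries were found for 7 of the 10 members, and none for Plxna4, Plxna1 or Sema6a. Each line gives the 250 bases before a start site on the coding strand, at chr2:124089719-124089968 (plus strand) for Sema6d, chr17:56140344-56140593 (minus strand) for Sema6b and chr6:115995006-115995255 (minus strand) for Plxnd1. Capitals mark matches to 3 motifs searched on both strands, namely the E-box CANNTG bound by bHLH factors, the TFAP2 motif GCCNNNGGC and the SOX motif ACAAAG.
Sema6d: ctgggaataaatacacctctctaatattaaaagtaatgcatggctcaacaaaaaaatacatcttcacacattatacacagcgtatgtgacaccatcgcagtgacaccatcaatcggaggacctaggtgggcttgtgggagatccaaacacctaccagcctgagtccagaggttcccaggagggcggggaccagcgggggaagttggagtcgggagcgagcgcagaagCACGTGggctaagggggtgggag
Sema6b: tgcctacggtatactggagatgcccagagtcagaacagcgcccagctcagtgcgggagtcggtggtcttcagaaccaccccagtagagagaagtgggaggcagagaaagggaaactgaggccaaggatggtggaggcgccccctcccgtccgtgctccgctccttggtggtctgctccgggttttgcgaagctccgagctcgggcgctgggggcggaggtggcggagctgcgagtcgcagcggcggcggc
Plxnd1: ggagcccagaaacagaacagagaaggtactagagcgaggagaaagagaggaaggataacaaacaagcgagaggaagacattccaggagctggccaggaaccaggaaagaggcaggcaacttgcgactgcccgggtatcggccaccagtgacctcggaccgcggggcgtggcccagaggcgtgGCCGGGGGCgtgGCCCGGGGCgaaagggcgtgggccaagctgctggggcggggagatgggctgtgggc
Of all 32851 windows of this length, 66.2% held the E-box, 13.7% the TFAP2 motif and 16.5% the SOX motif. The Sema6d window held 1 E-box and neither other motif, the Plxnd1 window held 2 TFAP2 matches, and the Sema6b window held none of the 3. The windows held 9, 16 and 20 CpG dinucleotides for Sema6d, Plxnd1 and Sema6b. No motif was common to the 3 windows. Sema6d has a further window in the table, at chr2:124653331-124653580, which held 1 SOX match and 2 E-boxes. Sema6b also has a further window, at chr17:56133853-56134102, and it held none of the 3 motifs.

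Sema6c, a further class 6 gene, and Sema5b differed by a larger ratio between the library sets than between the genotypes. Sema5b, whose protein repels axons in the retina through plexins A1 and A3, had 4.97, 4.92, 3.45 and 2.14 FPKM in wild type 1 to 4. The deletion libraries 1, 3 and 4 had 5.28, 4.63 and 2.6 FPKM. Libraries numbered 4 were the lowest of both genotypes, and the groups overlapped over nearly their whole range. The coefficient of variation of Sema5b in the wild type was 35%, against 3.47% to 16.1% for the other members. Wild-type libraries 1 and 2 had 1.77 times the mean of libraries 3 and 4, and the corresponding ratio for Sema6c was 1.32. For Sema5b the log2 fold change was 0.09 (SE 0.261, adjusted p = 0.977 in limma), and under the block 0.20 (SE 0.0698, adjusted p = 0.168). Sema6c was 6.34 to 8.78 FPKM in the wild type and 5.45 to 8.24 FPKM after deletion, and its log2 fold change was -0.11 with a 95% interval of -0.45 to 0.22.

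Neuronal markers varied in the same way as Sema5b. All 7 reached 1 FPKM, and none was at 0. Their summed level was 366, 305, 268 and 194 FPKM in wild type 1 to 4 and 344, 315 and 205 FPKM in Chd7 deletion 1, 3 and 4. The libraries numbered 4 were again the lowest of both genotypes. The part of neuronal cells in the Sema5b and Sema6c levels was not tested.

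**Figure D4:**
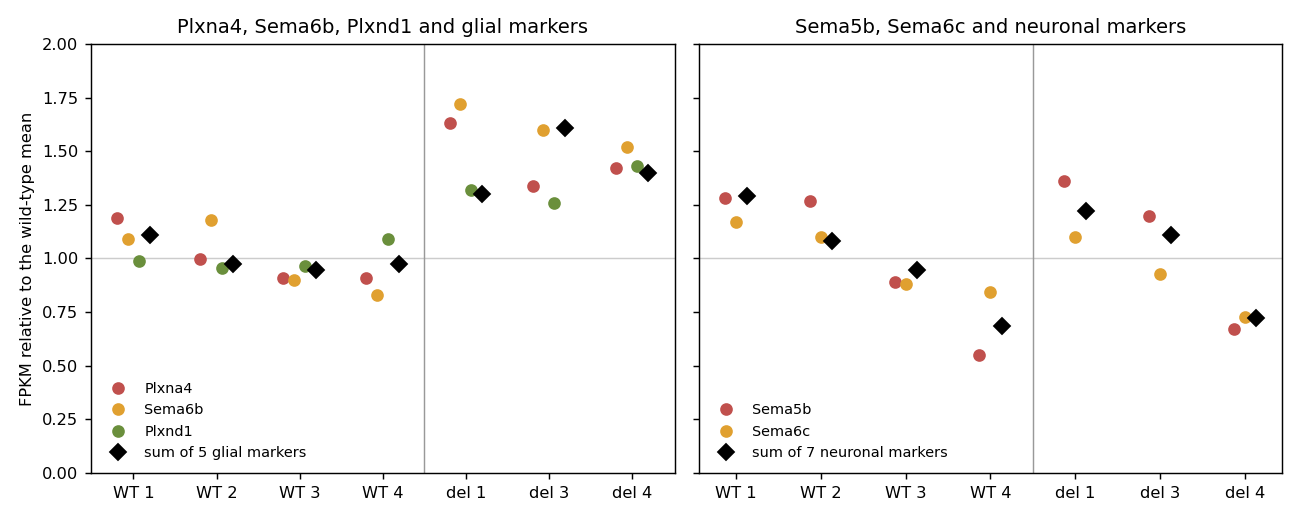
FPKM relative to the wild-type mean (vertical axis, from 0) in each library (horizontal axis; WT, wild type; del, Chd7 deletion), for Plxna4, Sema6b, Plxnd1 and the sum of 5 glial markers (left) and for Sema5b, Sema6c and the sum of 7 neuronal markers (right). On the left every deletion library is above the wild-type mean (1.26 to 1.72), and on the right the libraries numbered 4 are the lowest of each genotype (0.552 to 0.844).

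Sema5a, the gene of a class 5 semaphorin that can attract or repel axons and binds plexin-B3, was 4.97 to 5.77 FPKM in the wild type and 4.49 to 5.62 FPKM after deletion. The groups overlapped, since Chd7 deletion 4 lay within the range of the wild-type libraries, while the other deletion libraries lay below it. The log2 fold change was -0.13 with a 95% interval of -0.33 to 0.08 (limma, adjusted p = 0.925, or 0.281 under the block). By same-numbered libraries the ratio was 0.80 for numbers 1 and 3 and 1.05 for number 4.

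Neither of the B plexins passed the threshold in either fit. Plxnb2 had 29.7, 28.7, 31.3 and 30 FPKM in wild type 1 to 4 and 27.0, 27.0 and 25.6 FPKM in Chd7 deletion 1, 3 and 4. Each deletion library was below each wild-type library, as was so for 6.17% of all genes tested (the higher pattern of Plxna4 was found in 3% of genes). The mean was 1.13-fold lower after deletion (29.9 ± 1.04 FPKM in wild type and 26.5 ± 0.789 FPKM after deletion, SD, n = 4 and 3). The log2 fold change was -0.17 (SE 0.0679, adjusted p = 0.605 in limma, or 0.122 under the block). The exact permutation test gave p = 0.0286, the smallest value possible, unadjusted for the 10 members examined in this way. The difference shrank to -0.09 when libraries were brought to the same distribution or to the same sum without Rn45s, so a part of its size depends on scaling. Plxnb1 was 18.1 to 21.4 FPKM and 18.9 to 21.5 FPKM, with a log2 fold change of 0.01 and a 95% interval of -0.18 to 0.20, and shares 257 exon bases with the antisense gene Gm7628.

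Of the other semaphorins and plexins (classes 4 and 7, Sema6b, Plxna2, Plxnb3, Plxnc1 and Plxnd1), 9 of 12 were tested, and none passed the threshold in the genotype fit. At an unadjusted p below 0.05 there were 2 of the 9, Sema6b and Plxnd1, where 7.38% of all genes tested were. Both were on the higher side (2.56% of all genes). Both rose under the block, where 1.04% of all genes were called higher. Plxnd1 encodes the receptor of semaphorin 3E and is known for its role in vessels and the outflow tract. Its level was 6.98 ± 0.427 FPKM in wild type (SD, n = 4) and 9.34 ± 0.585 FPKM after deletion (SD, n = 3), 1.34-fold higher, and the groups did not overlap. The part of glial cells in the Plxnd1 level was likewise not tested. Its log2 fold change was 0.37 (SE 0.0749, adjusted p = 0.0831 in limma). Under the block it was 0.36 (adjusted p = 0.0218, and between 0.00143 and 0.326 across the 24 alternatives). Here too the lowest came from the block without number 1. Sema4c, the gene of a ligand of plexin-B2, was 18.0 FPKM in both groups (SD 0.448, n = 4, and 0.197, n = 3). The median log2 fold change of the 9 genes was 0.00.

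The co-receptors and partners of plexins and the genes that act after them gave no call in either fit. Of 17 co-receptor and partner genes 12 were tested, with log2 fold changes from -0.15 to 0.31 and a median of 0.03. An unadjusted p below 0.05 was found for 1 of the 12, and for 7.38% of all genes tested. This was the adhesion gene L1cam, on the higher side (adjusted p = 0.484 in limma). Of 38 signalling genes, among them the MICAL oxidases, the collapsin response mediators and the Rnd GTPases, 36 were tested. Their log2 fold changes ran from -0.21 to 0.22, with a median of 0.02. Of the 36, 1 had an unadjusted p below 0.05, Mical3 (adjusted p = 0.398 in limma, higher after deletion). Genes higher at that level made up 2.56% of all genes tested.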

How the data were processed

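Expression was measured by RNA sequencing in 7 libraries, 4 labelled wild type and 3 labelled Chd7 deletion. Per the labels' protocols, RNA of sorted cells was depleted of ribosomal RNA, fragmented at random, primed at random and made into strand-specific libraries. The values deposited by the authors are FPKM, in 1 table that has a column for each library. Tools listed in the submitters' processing notes, without role or order, are Partek, SAMtools, HISAT2, Trimmomatic 0.38 and bcl2fastq 2.18.0.12, and the build listed is mm10. The sources used here do not give the annotation, filters, use of strand or scaling between libraries.

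The table had 19169 rows, of which 25 held a date in place of a symbol and were left out. A mean of 1 FPKM or more was required (11039 genes). Values of log2(FPKM + 1) were fitted in R 4.3.3 by limma 3.58.1 (2-sided, variance trend with mean level), and p-values were adjusted by Benjamini-Hochberg across these genes, with a threshold of 0.05. The genotype fit was tested on simulated data with known answers, and it recovered 76% of 1.5-fold changes. Those data held no effect of library set or number, and the block fit was not tested in this way. Same-numbered libraries deviated together from their group means (r = 0.704 for number 1, 0.399 for number 3 and 0.775 for number 4, across genes), and the numbers were taken to pair the libraries, since each r was above 0.1. No litter or day is stated. Other numbers of the same library set also correlated (0.592 for deletion 1 with wild type 2, 0.377 for deletion 4 with wild type 3 and 0.25 for deletion 3 with wild type 4), so pairing by number and an effect of the set are not separated. Wild type 2 has no partner, so it added nothing to the genotype estimate of the block fit. Each single gene was also put to an exact permutation test.

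Relative depth came from the ratio of values of genes below 0.2 FPKM in every library. Reads were then recovered for 8 of the 10 members as the smallest whole numbers in the ratio of the values, within 0.05 read in each library, and for Plxna3 and Plxnb2 none were found. They show the depth behind a value and entered no test. Positions and exons came from GENCODE M21 (GRCm38, the build that mm10 names). Tables and plots were made in Python 3.11.15 (pandas 2.3.3, matplotlib 3.10.9, numpy 2.4.6).

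The members and gene lists were chosen with earlier results of these data known. Named were all members, the listed pathway genes past the threshold in either fit, the most abundant of the semaphorin and plexin list, and the 3 genes most like the member with the largest change. L1cam, Mical3, Plxnb3 and the markers named singly fall outside this rule and were chosen after their values were seen. The motifs were chosen after the values were seen. Alternatives covered the pseudocount, the filter, scaling, library weights, the block, the library set and leaving out libraries.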

Additional observations from a re-analysis of the deposited data

Results flagged for a closer look

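Of the 18 genes examined for a library that stands apart, 1 did so. Fam49a, the second of the genes most like Plxna4, had 1.58 FPKM in wild type 1 against 1.33 to 1.35 FPKM in the other wild-type libraries, and the gap was 0.891 of the range of the group, above the limit of Dixon's test. Chance gives such a gap in about 1 group in 20. The deletion group, with 3 libraries, was not examined in this way.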

How the results depend on the processing

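Over the 24 alternatives Plxna4, Sema6d, Sema6b and Plxnd1 stayed higher and Sema5a, Sema6a and Plxnb2 stayed lower after deletion. The number of genes called in limma (98 in the genotype fit) was 62 with no filter, 154 with libraries scaled to the same median, 213 with library weights, 366 with the replicate block, 720 with the library set as a covariate and 2258 in numbers 1 and 2 alone. Leaving out 1 library gave 4 to 72. The members called (0 in the genotype fit) numbered 1 with weights, 2 with the replicate block, 2 with the library set, 1 in numbers 3 and 4 alone and 2 in numbers 1 and 2 alone. The other pathway genes called (0 in the genotype fit) numbered 1 with median scaling, 2 with weights, 2 with the replicate block, 2 with the library set and 9 in numbers 1 and 2 alone. Alternatives chosen after seeing the data were the replicate block with median scaling, which called 797 genes (446 higher and 351 lower), 4 members (Sema5b and Plxna1 in addition) and 7 pathway genes, and the replicate block without all libraries of a number. Without number 1, 3 or 4 the replicate block called 857, 1027 and 0 genes (1052 at an unadjusted p below 0.05 without number 4), 3, 1 and 0 members, and 6, 3 and 0 pathway genes. The replicate block changed no call of a named gene other than those of Plxna4, Sema6d, Sema6b and Plxnd1. The cause of these shifts was not tested.

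Small log2 fold changes took the other sign under some settings. With weights they were -0.195 for Sema5b, -0.061 for Plxna3, -0.043 for Plxnb1 and -0.022 for Plxna2. With the replicate block they were -0.012 for Sema4c and -0.013 for Plxna2, and Sema6c was 0.003 when median scaling was added. Sema4c was -0.001 with the library set and -0.008 in numbers 1 and 2 alone, and Plxna2 was -0.054 in numbers 3 and 4 alone. Leaving out 1 library gave values on both sides of 0, from -0.043 to 0.046 for Plxnb1, -0.102 to 0.335 for Sema5b, -0.016 to 0.137 for Plxna3, -0.001 to 0.177 for Plxna1, -0.236 to 0.023 for Sema6c, -0.012 to 0.012 for Sema4c and -0.019 to 0.051 for Plxna2. Under the replicate block Sema4c was 0.004, -0.028 and -0.013 without number 1, 3 and 4, and Plxna2 was -0.054, 0.031 and -0.015.

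The groups hold 4 and 3 libraries, which limits the precision of every fold change. FPKM carry no read totals, so depth is known only relative to wild type 1. Where numbers 1 and 2 were fitted alone, Chd7 deletion 1 was the single deletion library and was assumed to vary like the others.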

Other observations

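Plxnb3, the receptor of semaphorin 5A, was below the level required for testing and is named after its values were seen. It had 0.110 to 0.144 FPKM in the wild type, on 19 to 34 reads per library, and 0.195 to 0.279 FPKM after deletion, on 38 to 59 reads. The groups did not overlap, with a ratio of means of 1.84.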
